A study of Mus musculus with 19 samples.

Results

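The 46 genes described here act in G2 and mitosis, at the spindle, at the kinetochore and in cytokinesis. They were chosen by name for these functions, with earlier results of these data known. Each was found once by its symbol in all 3 deposited RNA-seq tables of mouse retina. Those tables list 22294 (48 h), 23635 (14 days) and 35734 (E17.5) genes. Pou3f1, whose product is a POU family transcription factor, was added in one experiment and deleted in the other. For the addition, plasmids were electroporated in vivo into the eyes of wild-type CD1 pups at postnatal day 1, and fluorescent retinal cells were sorted and combined to about 150000 per replicate. The libraries numbered 3 with Gfp and 3 with Pou3f1 after 48 h, and 4 with Gfp and 5 with Pou3f1 after 14 days. The control cells at both times had been electroporated and sorted too, with the condition label Gfp. The labels give 14 days after electroporation for the late groups, while the protocol text gives postnatal day 14. For the deletion, 2 libraries from homozygous Pou3f1 knockout embryos were set against 2 from heterozygous ones, each from whole C57B6J retina at E17.5, so the controls also lack 1 copy of the gene. The file name of that table gives embryonic day 14, and the age in the sample labels is used here. The labels describe neither the plasmid's promoter nor the structure of the knockout allele.

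A cell that enters mitosis activates Cdk1 with A- and B-type cyclins, condenses its chromosomes and builds a bipolar spindle. Kinetochores, assembled on Cenpa-containing centromeres, bind spindle microtubules, and the spindle assembly checkpoint holds back Cdc20 and the anaphase-promoting complex until every chromosome is attached. Most of these genes are transcribed in G2 and mitosis and are silenced in resting cells. In the mouse retina, progenitors divide until the first postnatal week or so and then leave the cell cycle, and their neurons and Müller glia stay postmitotic.

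Many promoters of such genes carry a cell cycle genes homology region (CHR), bound by the MuvB complexes that repress them in resting cells and activate them before mitosis, with CCAAT boxes, bound by NF-Y, upstream of it. Promoters of 300 bases, 250 before and 50 from the gene start, were taken from RefSeq (GRCm38.p6), which matched 39 of the 46 genes with 43 promoters (no entry for Incenp, Aurkb, Ccna2, Smc4, Kif20a, Tpx2 and Spc24). The CHR was searched as TTTGAA and the box as CCAAT, each on both strands, and the matches of the 2 words may overlap. A CHR lay in 33 of the 43 promoters (76.7%), against 17.9% of all 32851 promoters in the table. Within 50 bases of the start it lay in 69.8% against 4.9%. A CCAAT box lay in 76.7% against 37.4%, and both words together in 62.8% against 7.0%. An E2F-type site (TTTCCCGC, TTTCGCGC, TTTGCCGC or TTTGGCGC, both strands) lay in 11.6% against 2.3%. The octamer ATGCAAAT, a word that POU factors bind, lay in 0 of the 43 member promoters on either strand and in 1.7% of all. Mad2l1, Nuf2 and Birc5 held none of these words in the window. A match describes the letters only.

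The promoters of Cenpf, Aspm, Mki67 and Cdca8 are shown because each gene was called in a comparison below and its promoter holds a CHR, ties being taken by the adjusted p at 48 h. Mad2l1, called in 2 comparisons, holds none. Each runs 5′ to 3′ on the gene's strand from 150 bases before to 25 bases after the start, with CHR and CCAAT matches in capitals (a CCAAT match on the other strand reads ATTGG). In Cdca8 a CHR and a CCAAT match overlap by 1 base.
Cenpf: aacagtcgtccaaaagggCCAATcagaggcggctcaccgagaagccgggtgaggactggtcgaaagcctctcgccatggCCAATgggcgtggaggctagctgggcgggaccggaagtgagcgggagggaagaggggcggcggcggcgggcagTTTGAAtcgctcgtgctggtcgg
Aspm: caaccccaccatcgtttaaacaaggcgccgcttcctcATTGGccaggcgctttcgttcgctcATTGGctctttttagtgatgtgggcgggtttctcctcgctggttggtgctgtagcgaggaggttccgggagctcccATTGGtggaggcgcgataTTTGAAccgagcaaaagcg
Mki67: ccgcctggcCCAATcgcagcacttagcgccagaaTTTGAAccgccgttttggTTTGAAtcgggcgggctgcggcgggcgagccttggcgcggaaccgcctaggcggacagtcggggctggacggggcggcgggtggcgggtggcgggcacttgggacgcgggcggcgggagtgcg
Cdca8: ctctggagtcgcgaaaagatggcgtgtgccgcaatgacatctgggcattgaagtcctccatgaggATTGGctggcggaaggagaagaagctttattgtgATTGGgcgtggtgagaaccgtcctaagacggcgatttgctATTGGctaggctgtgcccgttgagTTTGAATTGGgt
The windows are chr1:189688062-189688236 on the minus strand for Cenpf, chr1:139454623-139454797 on the plus strand for Aspm, chr7:135716355-135716529 on the minus strand for Mki67 and chr4:124936893-124937067 on the minus strand for Cdca8. Each spans the RefSeq start of its gene, and that of Cdca8 lies inside the longer gene model of GENCODE. The CHR began 3 bases into the Cenpf transcript, 7 into Aspm and 14 into Cdca8, while the pair in Mki67 began at -116 and -98, before the start. The plot of match positions shows the CHR close to the start and the CCAAT boxes upstream of it.

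**Figure D1:**
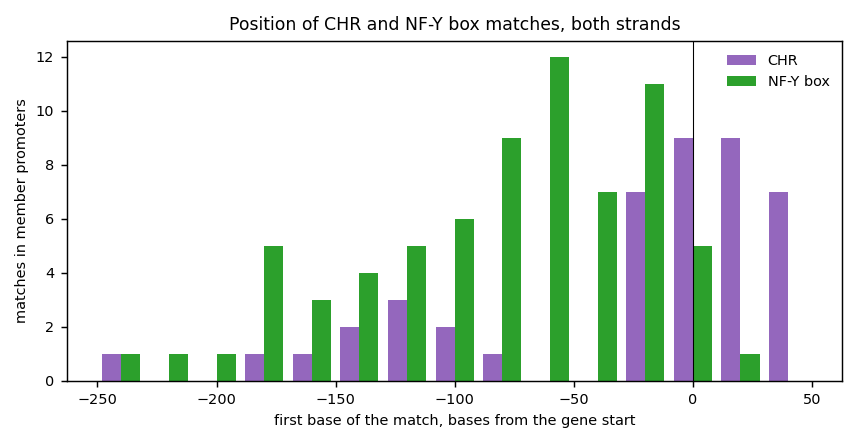
Position of the first base of every CHR (purple) and CCAAT match (NF-Y box, green), in bases from the gene start (0 line), in 43 promoters of 39 member genes, both strands, in bins of 20 bases. Bar height is the number of matches; 30 of the 43 promoters had a CHR within 50 bases of the start.

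No table lists values per library, so levels are the authors' mean normalized counts over the libraries of a comparison and depth per library is unknown. These sum to 16021000 over all listed genes at 48 h and 38507000 at 14 days. The E17.5 table lists no level and no standard error (SE). All 46 genes had an adjusted p in every table, and none was lost to a filter on low counts. The targeted gene itself had log2 fold changes of 0.91 ± 0.26 (SE) at 48 h and 5.57 ± 0.27 at 14 days (adjusted p = 0.0233 and 3.40e-88 in the authors' deposited table). These are 1.87-fold and 47.6-fold, at mean normalized counts of 37279 and 16972. The counts are means over Gfp and Pou3f1 libraries together, so the level of Pou3f1 in the Gfp cells is not listed. Taken at face value, 1.87-fold at a mean count of 37279 would put Pou3f1 at a high level in the 48 h Gfp cells too. The fold changes were read as shrunken toward 0, so that level is uncertain. Why the contrast was smaller at 48 h was not tested. At E17.5 the log2 fold change of Pou3f1 was -0.69 (adjusted p = 1.98e-08 in the authors' deposited table), and the table was read as knockout relative to heterozygote on the ground that Pou3f1 then falls. No label names separate animals for the replicates, so p-values measure the spread between these samples, which may be technical. "Rose" and "fell" are used only at an adjusted p under 0.05.

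The mitosis genes were abundant in the sorted cells at 48 h and scarce at 14 days. Each gene's mean normalized count was scaled to a table sum of 1000000 (CPM). The 2 tables were normalized separately, so this comparison has no test. In bulk RNA, fewer cells in mitosis and less RNA per cell cannot be told apart, here and below. The 46 genes summed to 6256 CPM at 48 h and to 287.5 CPM at 14 days. The median gene was 38.9-fold lower at 14 days, against 1.28-fold for the median of the 14580 genes that both tables gave an adjusted p. The fall ran from 4.83-fold for Incenp to 189-fold for Aurkb, and 38 of the 46 were at least 10-fold lower, against 3.35% of all genes. Mki67, the proliferation marker that coats mitotic chromosomes, went from 706 to 5.84 CPM. Top2a, the topoisomerase that untangles sister chromatids, went from 664 to 3.93 CPM. These had been the 2 highest members at 48 h.

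A smaller set kept more of its level. Smc4, a core ATPase of condensin, went from 267 to 48.0 CPM and was the highest member at 14 days. Incenp, the scaffold of the chromosomal passenger complex, went from 134 to 27.8 CPM and Ncapd2, a condensin I subunit, from 367 to 26.6. The checkpoint genes Bub1b (131 to 20.97) and Mad2l1 (88.3 to 15.4) stood in contrast to Bub1 (63.0 to 0.479) and Ttk (50.8 to 0.650), all in CPM. The same split ran through complexes. Aurkb, the kinase that Incenp binds, had 113 CPM at 48 h and 0.599 at 14 days. Of the 4 subunits of the Ndc80 complex, which grips microtubules, Spc24 (35.4 to 7.22 CPM) and Spc25 (139 to 16.2) kept more than Ndc80 (56.2 to 2.69) and Nuf2 (73.9 to 1.49). Divided by the length of the longest coding transcript, the level of Spc25 was above that of 95.5% of genes at 48 h and 66.3% at 14 days. That of Nuf2 was above 81.5% and 26.1%.

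**Figure D2:**
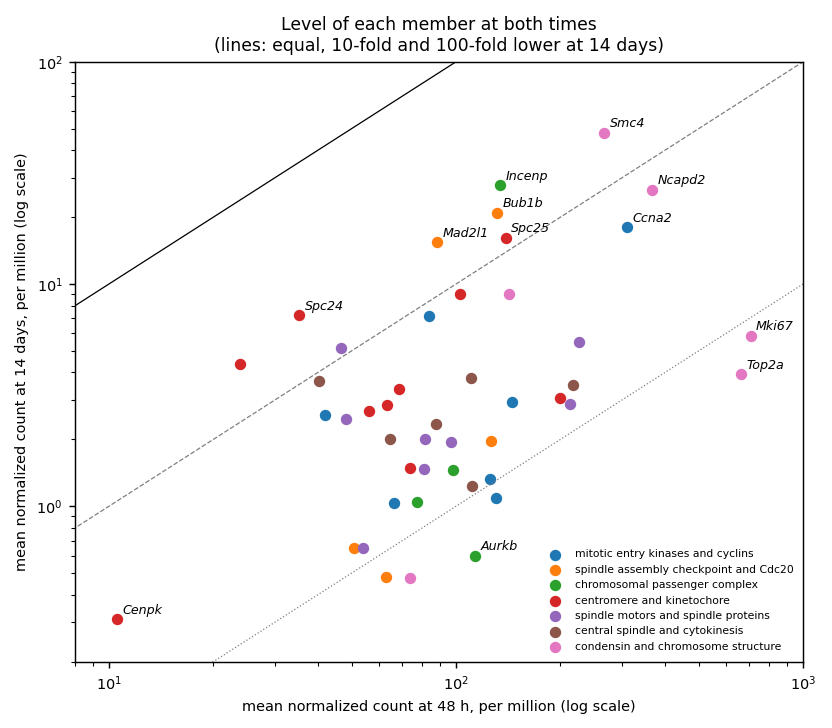
Mean normalized count in CPM at 48 h (horizontal, log scale) and 14 days (vertical, log scale) of the 46 genes, 1 point per gene, coloured by role. All points lie below the line of equal level, and 38 lie at or below the line of 10-fold lower level, while Smc4, Incenp, Bub1b, Mad2l1, Cenpn, Kif18a, Spc24 and Spc25 lie above it.

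At 48 h the question is how cells of the newborn retina respond soon after Pou3f1 is added. Pou3f1 itself was then only 1.87-fold above Gfp in the deposited fold change, which limits what this comparison can show. That value was read as shrunken toward 0, so the unshrunken contrast may be larger. Only Cenpf passed the test, and it fell. Of the 46 genes 0 rose and 1 fell by the authors' deposited table, where 1.48% of all 14714 genes tested rose and 1.56% fell (3.04% in either direction). Unadjusted p-values under 0.05 were found for 0 members on the high side and 10 on the low side, where 925 and 1245 of the 14714 genes had them. The fold change was negative for 39 genes and positive for 7, with a median of -0.22 on the log2 scale against -0.01 for all genes. Cenpf encodes a large protein of the outer kinetochore (chromosome 1, 189640606 to 189688086, minus strand, GRCm38). Its log2 fold change was -0.72 ± 0.17 at a mean count of 3202 (adjusted p = 0.00230 in the authors' deposited table), or 0.606-fold. The 95% interval ran from -1.06 to -0.39.

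Next in order were 2 genes of the checkpoint that did not pass. Cdc20 activates the anaphase-promoting complex, and its log2 fold change was -0.57 ± 0.19 (adjusted p = 0.0853 in the authors' deposited table). Bub1b, which encodes the checkpoint protein BubR1, had -0.49 ± 0.18 (adjusted p = 0.107 in the authors' deposited table). Of the 7 genes of mitotic entry, all were on the low side with a median of -0.39. They ran from Plk1, a kinase of mitotic entry and spindle assembly, at -0.46 ± 0.22 to Cdca3, which helps remove the Cdk1 inhibitor Wee1, at -0.03 ± 0.20 in the authors' deposited table. The B-type cyclins had like values, Ccnb1 at -0.43 ± 0.21 and Ccnb2 at -0.41 ± 0.20, while Cdk1 stood at -0.19 ± 0.22 (adjusted p between 0.315 and 0.768 in the authors' deposited table).

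Of the 5 checkpoint genes, all were negative (median -0.25), and the 8 genes of spindle motors and spindle proteins had a median of -0.36 with 1 positive member. That member, Kif15, a kinesin that holds the bipolar spindle together with Kif11, was at 0.34 ± 0.19, and Kif11 at -0.21 ± 0.20 (adjusted p = 0.428 and 0.708 in the authors' deposited table). Aspm, a spindle pole protein, and Tpx2, which activates Aurka, stood at -0.46 ± 0.23 and -0.39 ± 0.21 (adjusted p = 0.336 and 0.360 in the authors' deposited table). The 6 genes of the central spindle and cytokinesis had a median of -0.28, from Ect2, which acts at the cleavage furrow (-0.49 ± 0.25), to Kif20b (-0.03 ± 0.25) in the authors' deposited table.

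The 10 centromere and kinetochore genes had a median of -0.10, with 3 positive and 7 negative. Beside Cenpf, the centromeric histone gene Cenpa was at -0.44 ± 0.21, while Cenpk, of the inner kinetochore, was at 0.31 ± 0.26 (adjusted p = 0.291 and 0.644 in the authors' deposited table). The 4 passenger complex genes (median -0.10) and the 6 genes of condensin and chromosome structure (median -0.11) lay as near to 0. Cdca8 had the smallest adjusted p of the former (-0.22 ± 0.19, adjusted p = 0.677 by the authors' deposited table). Within the latter, Mki67 was at -0.34 ± 0.24 and Ncapd2 at 0.09 ± 0.21 (adjusted p = 0.562 and 0.907 in the authors' deposited table). The SE of members ran from 0.171 to 0.262.

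**Figure D3:**
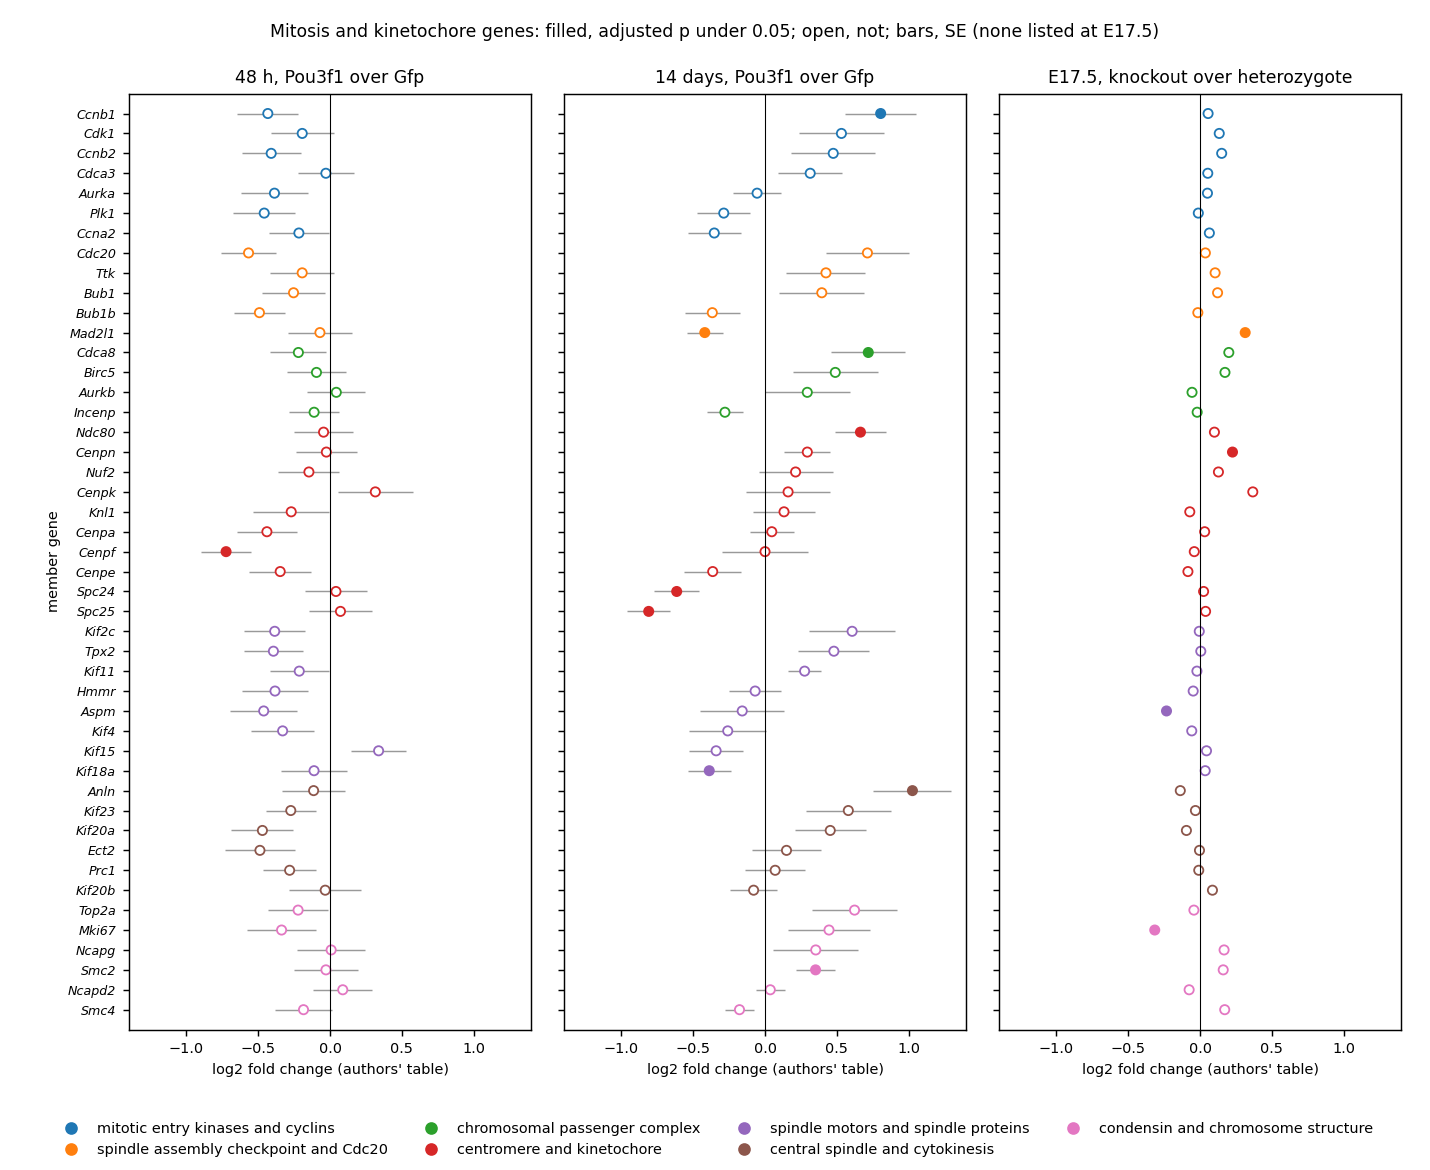
Log2 fold change of each of the 46 genes in 3 comparisons, coloured by role and ordered within a role by the 14 day value. Filled points have an adjusted p under 0.05 (1 at 48 h, 9 at 14 days, 4 at E17.5), bars are 1 SE, and the E17.5 table lists no SE.

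At 14 days the retina has formed, and the genes moved in both directions. Of the 46 genes 5 rose and 4 fell by the authors' deposited table, where 11.5% of all 17789 genes tested rose and 9.21% fell (20.7% in either direction), so the shares were near the background. The median log2 fold change was 0.19 against -0.01 for all genes, but the mean weighted by the inverse squared SE was 0.01. On the high side were 29 genes and on the low side 17. The members' SE reached 0.297, and 14 of them had an SE of at least 0.28, close to the largest SE in the whole table (0.297).

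The genes that rose spanned cytokinesis, mitotic entry, the passenger complex, the kinetochore and condensin. Anln encodes anillin, which organises the contractile ring (chromosome 9, 22332012 to 22389188, minus strand). Its log2 fold change was 1.02 ± 0.27, or 2.03-fold, at a mean count of 77.5 (adjusted p = 0.00223 in the authors' deposited table). Ccnb1, the cyclin that drives entry into mitosis (chromosome 13, 100778650 to 100786570, minus strand), rose by 0.80 ± 0.25 at a mean count of 41.7 (adjusted p = 0.00978 in the authors' deposited table). Processed pseudogenes with 97.3% to 99.2% identity over about 1290 bases share sequence with Ccnb1, so its reads may be split. Of these, Ccnb1-ps was at a mean count of 0.177 at 48 h in the authors' deposited table and is not in the 14 day table. Ndc80, which binds microtubules at the kinetochore (chromosome 17, 71496100 to 71526857, minus strand), rose by 0.66 ± 0.18 at a mean count of 103 (adjusted p = 0.00265 in the authors' deposited table). A pseudogene, 2700099C18Rik, shares 303 bases with it at 95.05% identity and stood at 0.55 ± 0.28 (adjusted p = 0.147 in the authors' deposited table).

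Cdca8 encodes borealin, a passenger complex subunit (chromosome 4, 124918465 to 124939311, minus strand). It rose by 0.72 ± 0.26 at a mean count of 56.0 (adjusted p = 0.0298 in the authors' deposited table). Smc2, the ATPase partner of Smc4 in condensin (chromosome 4, 52439243 to 52488260, plus strand), rose by 0.35 ± 0.14 at a mean count of 348 (adjusted p = 0.0478 in the authors' deposited table), while Smc4 itself stood at -0.18 ± 0.10 (adjusted p = 0.220). Several scarce genes were as far up but did not pass, among them Cdc20 at 0.71 ± 0.29, Top2a at 0.62 ± 0.30 and Kif2c, a kinesin that takes microtubule ends apart, at 0.61 ± 0.30 (adjusted p = 0.0582, 0.121 and 0.134 in the authors' deposited table).

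The genes that fell were 2 subunits of the Ndc80 complex, a checkpoint protein and a kinesin. Spc25 (chromosome 2, 69193895 to 69206194, minus strand) had the largest fall, at -0.81 ± 0.15 or 0.571-fold, at a mean count of 622 (adjusted p = 4.04e-06 in the authors' deposited table). Its partner Spc24 (chromosome 9, 21755442 to 21760303, minus strand) fell by 0.61 ± 0.16 at a mean count of 278 (adjusted p = 0.00144 in the authors' deposited table). Within the same complex Ndc80 rose, and Nuf2 was at 0.21 ± 0.26 (adjusted p = 0.612 in the authors' deposited table). Mad2l1, the checkpoint protein that inhibits Cdc20 (chromosome 6, 66535390 to 66547220, plus strand), fell by 0.42 ± 0.13 at a mean count of 594 (adjusted p = 0.00833 in the authors' deposited table). Kif18a, a kinesin that dampens chromosome movements on the spindle (chromosome 2, 109280738 to 109341747, plus strand), fell by 0.39 ± 0.15 at a mean count of 198 (adjusted p = 0.0444 in the authors' deposited table). With the adjustment over all genes with a p-value, Smc2 (adjusted p = 0.0634) and Kif18a (0.0589) no longer passed. Mad2l1 shares 454 bases with a processed pseudogene, Gm42430, at 95.4% identity. Transcripts of Ccna2, Kif20a, Kif4, Ncapg and Prc1 overlap a gene on the other strand, so their values are uncertain if the counting did not use strand.

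The 5 genes that rose and the 4 that fell at 14 days did not overlap in how much of their level they had kept. Both counts were near the shares of all genes that rose (11.5%) and fell (9.21%). The falls in level of all genes that rose or fell were not computed, so a pattern particular to the members was not tested. The 4 genes that fell were 4.90-fold to 9.11-fold lower in level than at 48 h, and the 5 that rose were 15.8-fold to 120-fold lower. Over the 46 genes, the 14 day log2 fold change and the log2 fall in level had a Pearson's r of 0.68 and a Spearman's rank correlation of 0.70, against 0.32 and 0.40 over 14580 genes. These correlations are descriptions across genes, which are not independent replicates, and both measures use the 14 day libraries. Of the 23 genes with the smaller falls in level 10 had a positive fold change at 14 days, and of the 23 with the larger falls 19 did. The median SE was 0.169 in the former and 0.286 in the latter. Of all 17789 genes tested at 14 days, 8501 had a positive fold change.

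**Figure D4:**
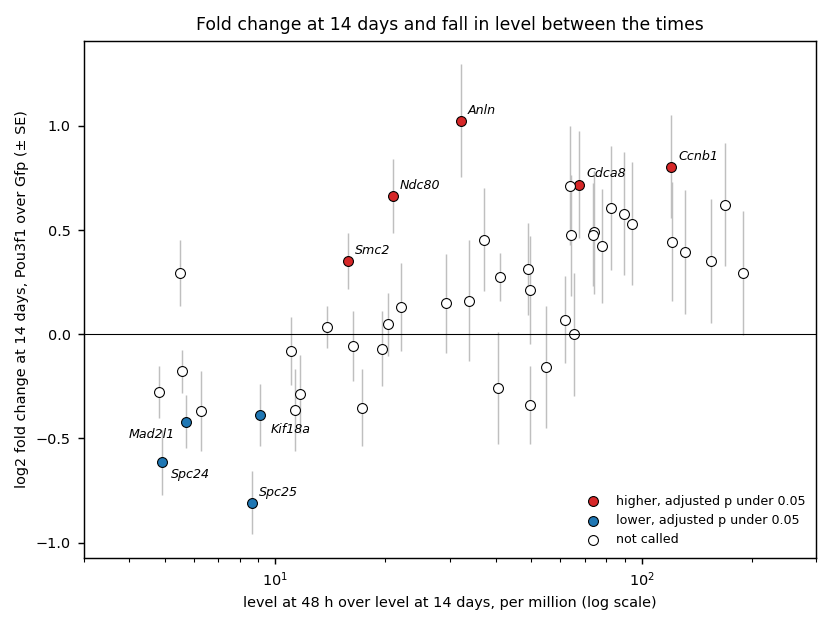
Log2 fold change at 14 days (± SE, vertical) against the ratio of the level at 48 h to that at 14 days (horizontal, log scale), 1 point per gene for 46 genes. Blue points (fell) lie at ratios of 4.90 to 9.11 and red points (rose) at 15.8 to 120, and open points did not pass.

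Markers of other cells moved at 14 days beside these genes. Of all genes tested, 11.5% rose and 9.21% fell at 14 days, and 1.48% rose and 1.56% fell at 48 h. All 9 microglia markers rose in the authors' deposited table (median log2 fold change 1.68), among them C1qc (1.87 ± 0.24), C1qa (1.80 ± 0.25) and Cx3cr1 (1.66 ± 0.23). Their summed level was 7.50 CPM at 48 h and 62.0 at 14 days, and none of the 9 was at 0. Of 12 retinal progenitor markers 5 rose and 0 fell (median 0.23, summed level 3654 CPM at 48 h and 1094 at 14 days), and of 8 neurogenic progenitor markers 5 rose and 0 fell (median 0.72). Of 8 Müller glia markers 0 rose and 4 fell (median -0.40). Of 9 ganglion cell markers 2 rose, Pou4f2 (3.64 ± 0.26) and Isl1 (0.46 ± 0.18), and 0 fell by the authors' deposited table (median -0.12). Of 9 blood vessel markers, 8 with an adjusted p, 0 rose and 1 fell (median -0.57, summed level 767 CPM at 48 h and 389 at 14 days). The 48 h sum was mostly Kdr, at a mean normalized count of 11683, with the other listed vessel markers between 10.4 (Tek) and 211 (Pdgfrb). At 14 days Kdr was at 8233 and the others between 137 (Tek) and 2981 (Rgs5, not listed at 48 h). The drop in the sum therefore does not describe the other vessel markers. The part of any of these cells in the values of the mitosis genes was not tested. At 48 h, 0 of 6 microglia markers with an adjusted p changed, and 1 of 12 progenitor markers (Notch1) and 1 of 8 neurogenic markers (Atoh7) fell, with medians of -0.30, -0.10 and -0.30. Of 7 Müller glia markers listed at 48 h 0 changed, though all 7 were negative (median -0.35) and 4 had an unadjusted p under 0.05. Of 8 blood vessel markers listed then, 1 (Kdr) fell, by 0.63 ± 0.15 (adjusted p = 0.00298 in the authors' deposited table; list median -0.32). Their part in the 48 h values of the members was not tested. Of 4 photoreceptor markers listed at 48 h, 1 (Crx) fell.

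The difference between the fold changes at the 2 times was tested directly, since each time has control libraries of its own. By a two-sided z test on the difference with the SE of both, adjusted over 14580 genes, 3 members were higher at 14 days than at 48 h and 1 was lower (4.48% of all genes were higher, 1.66% lower and 6.14% either, so these shares too were near the background). The difference (14 days minus 48 h, ± SE) was 1.24 ± 0.33 for Ccnb1 (adjusted p = 0.00612), 1.28 ± 0.35 for Cdc20 (adjusted p = 0.00800) and 1.14 ± 0.35 for Anln (adjusted p = 0.0248). It was -0.88 ± 0.27 for Spc25 (adjusted p = 0.0222). Cenpf, the gene that fell at 48 h, was at -0.00 ± 0.30 at 14 days in the authors' deposited table, and its difference of 0.72 ± 0.34 did not pass (adjusted p = 0.213, 95% interval 0.05 to 1.39). Of the 46 genes 25 were negative at 48 h and positive at 14 days, 14 negative at both, 4 positive at both, and 3 went from positive to negative. Across the members, the fold changes at the 2 times had a Pearson's r of -0.16 and a Spearman's rank correlation of -0.14, against 0.17 and 0.13 over all genes, given as a description. Both fold changes were read as shrunken toward 0, which bears most on scarce genes. Shrinkage may also bear on Pou3f1, whose SE at 48 h (0.26) was near the largest of that table (0.296). As deposited, Pou3f1 itself was 1.87-fold at 48 h and 47.6-fold at 14 days. Time and the size of the Pou3f1 contrast therefore cannot be told apart.

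In the embryonic retina the question is what the loss of the remaining Pou3f1 copy does while progenitors still divide. Pou3f1 RNA was at 0.620-fold in the knockout relative to the heterozygote, and the labels do not describe the allele. How fully its product was lost is therefore not known, which limits what this comparison can show. Here 2 of the 46 genes rose and 2 fell by the authors' deposited table, against 4.70% and 5.34% of all 14821 genes tested (10% in either direction), so this too was near the background. Changes were small, with 40 of the 46 genes within 0.2 of 0 on the log2 scale. The median was 0.03, against 0.00 for all genes. Mad2l1 rose by 0.31, or 1.24-fold (adjusted p = 0.00163 in the authors' deposited table), and was the sole gene called in more than 1 comparison. Cenpn, of the inner kinetochore (chromosome 8, 116921730 to 116941507, plus strand), rose by 0.23 (adjusted p = 0.0403 in the authors' deposited table, 0.0657 when adjusted over all genes with a p-value). Mki67 (chromosome 7, 135689784 to 135716361, minus strand) fell by 0.31, or to 0.804-fold, and Aspm (chromosome 1, 139454772 to 139494091, plus strand) fell by 0.23 (adjusted p = 0.0199 and 0.0225 in the authors' deposited table).

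Beyond these, Cenpk had the largest value at E17.5, 0.37, without passing (adjusted p = 0.121 in the authors' deposited table). The passenger complex genes Cdca8 and Birc5, which encodes survivin, were at 0.20 and 0.17 (adjusted p = 0.0529 and 0.0687 in the authors' deposited table). Cdca8 lies 258 kb from Pou3f1 (chromosome 4, 124656807 to 124660655). Of 24 genes within 1 Mb of Pou3f1, Cdca8 included and Pou3f1 left out, 5 were called at E17.5 (20.8%, against 10% of all genes). Within 5 Mb it was 17 of 109 (15.6%). The other members on chromosome 4 were farther off, Cdc20 at 6.22 Mb, Kif2c at 7.47 Mb and Smc2 at 72.2 Mb. Ccnb2 was highest of the cyclins and Cdk1, which lay between 0.06 and 0.15, and Anln was at -0.14 (adjusted p = 0.176 for Ccnb2 and 0.286 for Anln by the authors' deposited table). Plk1 stood at -0.01 and Aurkb at -0.06 by the authors' deposited table. Among cell markers at E17.5, 4 of 8 neurogenic genes fell and 1 rose, 3 of 9 vessel genes fell, 1 of 12 progenitor genes rose and 1 fell, and 0 of 9 microglia genes changed by the authors' deposited table (2 of them low at an unadjusted p under 0.05); their part in the values of the members was not tested. With 2 libraries per genotype, the precision is limited, and the table gives no SE to state it.

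Other genes of the cell cycle, listed by function and also with earlier results of these data known, are set beside the members. Of 110 other G2 and mitosis genes 0 rose and 0 fell at 48 h (unadjusted p under 0.05: 2 high, 5 low), 12 rose and 7 fell at 14 days, and 9 rose and 3 fell at E17.5 in the authors' deposited table. Their medians were -0.08, 0.04 and 0.07. For this list and those below, 1.48% of all genes tested rose and 1.56% fell at 48 h. The shares of all genes were 11.5% and 9.21% at 14 days, and 4.70% and 5.34% at E17.5. Mybl2, a MuvB partner of dividing cells, rose at E17.5 by 0.34 (adjusted p = 0.00578 by the authors' deposited table). At 14 days the largest rise among the regulators was that of Gtse1, a microtubule protein of G2, at 1.19 ± 0.25 (adjusted p = 9.03e-05 in the authors' deposited table). Spag5, a spindle protein, fell by 0.74 ± 0.16 at the same time (adjusted p = 9.09e-05 in the authors' deposited table).

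Of 30 other centromere, kinetochore and checkpoint genes, 5 rose and 0 fell at E17.5, among them Oip5 (0.40), Mis18a (0.30) and Trip13 (0.30) (adjusted p between 0.00114 and 0.0201 in the authors' deposited table). Oip5 and Mis18a belong to the complex that marks centromeres for new Cenpa, and Trip13 is an ATPase that acts on Mad2l1. Of 15 cohesion genes, Pttg1, whose product securin inhibits separase, fell by 0.53 at E17.5 (adjusted p = 3.99e-09 in the authors' deposited table), and the other 14 did not pass.

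The genes of earlier phases were counted in the same way. Of 24 DNA replication genes 0 rose and 0 fell at 48 h (0 and 0 at an unadjusted p under 0.05), 7 rose and 0 fell at 14 days, and 19 rose and 0 fell at E17.5 in the authors' deposited table, with medians of 0.10, 0.15 and 0.31. At E17.5 Mcm3 (0.34), Mcm5 (0.32) and Tyms (0.43), which encode 2 subunits of the replicative helicase and thymidylate synthase, had the smallest adjusted p (between 2.79e-07 and 5.06e-06 in the authors' deposited table). Of 14 G1 genes, 5 rose and 0 fell at E17.5, led by Ccnd3 (0.36) and Ccne2 (0.50), and 4 rose and 1 fell at 14 days, led by Cdk4 (0.88 ± 0.16) in the authors' deposited table. Cdkn1c, which encodes the CDK inhibitor p57 of retinal precursors leaving the cycle, was the 1 gene of its list that changed. It rose by 0.63 ± 0.17 at 48 h and by 0.34 ± 0.10 at 14 days and fell by 0.40 at E17.5 (adjusted p = 0.00891, 0.00985 and 0.0232 in the authors' deposited table). No test compared these lists with the members.

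**Figure D5:**
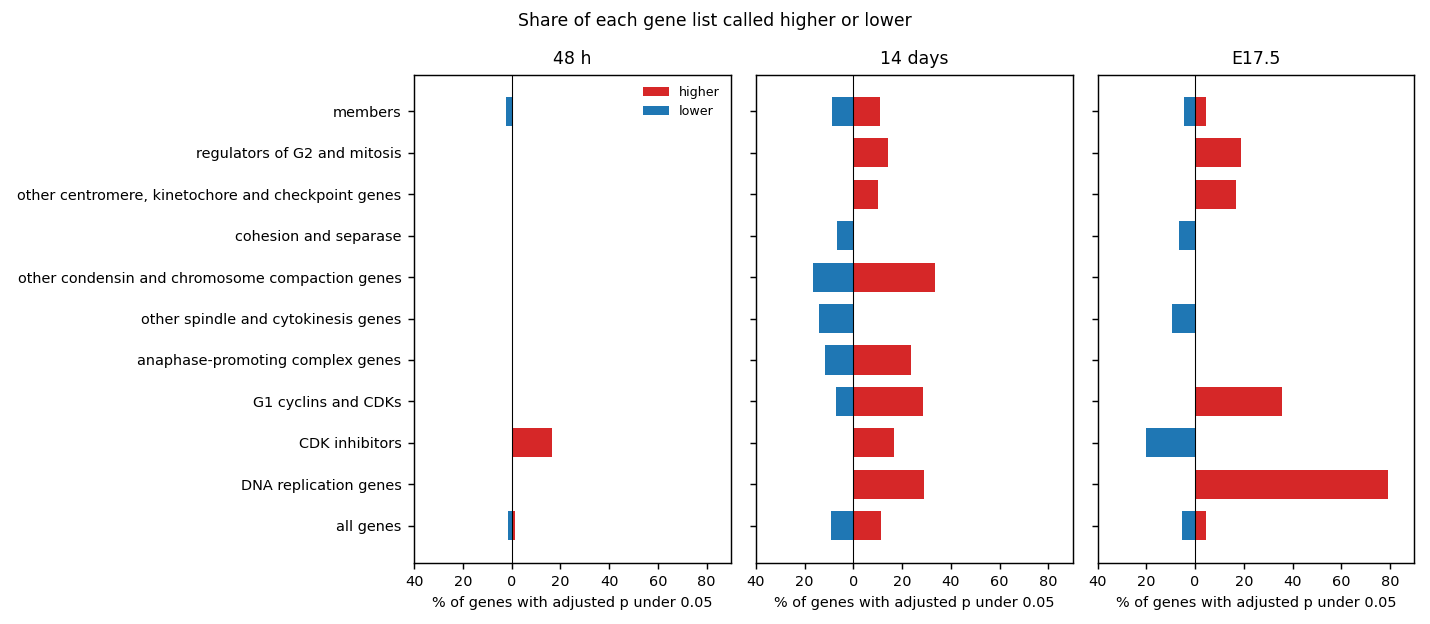
Percent of the genes of each list with an adjusted p under 0.05, higher to the right (red) and lower to the left (blue), in the 3 comparisons, for the 46 members, 9 other lists and all genes. The members stay near the bar of all genes at every time, and the DNA replication list reaches 19 of 24 genes higher at E17.5.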

How the data were processed

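RNA-seq of 19 libraries in 6 groups was deposited as 3 comparison tables. The mean normalized count per gene (a signal over the libraries of a comparison), the log2 fold change with its SE and the Wald score were made by the authors, per the file headers. The p-value and adjusted p-value were also computed by the authors. Salmon, DESeq2 and the build mm10 are named in the submitters' processing notes, without versions. The log2 fold changes of the 48 h and 14 day tables were read as shrunken, since SE do not exceed 0.297 even for scarce genes. Recomputing the Benjamini-Hochberg adjustment over genes with an adjusted p matched the deposited values. No file gives counts per library, so depth, replicate spread and strand use in counting could not be examined, and no new model was fitted within a table.

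From these, calls at the authors' adjusted p under 0.05 (DESeq2), levels as CPM, the z test between times (tried on simulated data) and promoter words were computed with Python 3.11.15 (scipy 1.17.1, pandas 2.3.3, matplotlib 3.10.9, numpy 2.4.6). The simulated fold changes were not shrunken, unlike the deposited ones as read here, so the z test was not checked under shrinkage. Positions and transcript lengths came from GENCODE mouse release 21 (GRCm38), and similar transcripts from BLAST 2.17.0 (at least 95% identity over 300 bases). Alternatives were stricter and looser thresholds (0.01, 0.1), a fold limit of 1.5, a mean count of at least 10, adjustment over all genes with a p-value, and another sum for levels. Any member could be named; of other lists, up to 3 called genes per comparison with the smallest adjusted p. The members and lists were chosen with earlier results of these data known. Photoreceptor markers at 14 days are not reported here.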

Additional observations from a re-analysis of the deposited data

Results flagged for a closer look

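The fold change of Pou3f1 against Gfp at 14 days differed from that at 48 h for 4 of the 46 genes by the z test described above. The test was Benjamini-Hochberg adjusted over 14580 genes, of which 6.14% differed, so the members' share was near that of all genes. Pou3f1 itself was 1.87-fold at 48 h and 47.6-fold at 14 days. Time and the size of the Pou3f1 contrast therefore cannot be told apart. The difference in log2 fold change, 14 days minus 48 h, was 1.2365 for Ccnb1, 1.2786 for Cdc20 and 1.1391 for Anln. For Spc25 it was -0.88111. None of the 4 had passed at 48 h on its own, and Cdc20 had not passed at 14 days either.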

How the results depend on the processing

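The alternative thresholds, filters and adjustments leave each gene's fold change as deposited, so they bear on calls and not on directions. Shares of all genes called, in either direction, follow in brackets. With an adjusted p under 0.1 the members that fell at 48 h numbered 2, against 1 as reported [4.59%], those that rose at E17.5 4 against 2 [13.6%], and those higher at 14 days than at 48 h 8 against 3 [9.53%]. Under 0.01 the members that rose at 14 days numbered 3 against 5 [11.6%], at E17.5 1 rose and 0 fell against 2 and 2 [5.90%], and 0 were lower at 14 days than at 48 h against 1 [3.02%]. With a fold of at least 1.5 the members that fell at 14 days numbered 2 against 4 [9.51%], and at E17.5 0 rose and 0 fell [1.70%]. Adjusted over all genes with a p-value, 1 member rose at E17.5 [5.18%], and 4 rose and 3 fell at 14 days [14.1%]. Without mitochondrial genes, haemoglobin genes and Pou3f1 in the sum, the median fall in level was 39.24-fold (38.9-fold as reported). Counts under the other alternatives stayed within 1.5 times. Leaving out a library was not run, since the tables hold no values per library. No paired analysis was possible because the tables carry no replicate numbers. The low counts of many members at 14 days and the 2 libraries per genotype at E17.5 limit the precision.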
